A study of Mus musculus with 4 samples.

Results

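The genes described here are 10 members of the canonical Wnt pathway and of its corepressors: the Wnt receptor genes Fzd5 and Lrp5, the destruction complex genes Axin1, Apc and Gsk3b, the ubiquitin ligase gene Btrc, the beta-catenin gene Ctnnb1, and the Groucho corepressor genes Tle1, Tle3 and Tle4. They were taken from a list of names, and an accessible region belonged to a gene when it overlapped the mm10 gene span or the 20 kb on either side of it. All 10 genes were found in the annotation, among 21887 protein-coding genes, and their windows held 48 of 36224 accessible regions. The data are ATAC-seq peak lists of wild-type mouse thymocytes of the DN3 stage, the CD4 and CD8 double-negative precursors that rearrange the T cell receptor beta gene. Flow-sorted DN3 cells were passed over magnetic beads with a biotinylated antibody to the adhesion molecule EpCAM: the EpCAM-positive cells are those the beads held, and the EpCAM-negative cells are those left unlabelled. Each fraction had 2 libraries. The sources used here do not state age, sex, strain or number of mice, nor whether libraries of a fraction came from separate animals, so the spread between them may be technical.

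In the absence of a Wnt signal, a complex built on the scaffold proteins Axin1 and Apc presents beta-catenin to the kinase Gsk3b, and the F-box protein encoded by Btrc (beta-TrCP) marks the phosphorylated protein for destruction. A Wnt ligand bound by a Frizzled receptor and by Lrp5 or Lrp6 inactivates this complex, and beta-catenin then enters the nucleus and binds the HMG-box factors TCF1 (Tcf7) and LEF1. Groucho proteins of the Tle family occupy the same factors, and RUNX and HES factors, as corepressors. In the thymus TCF1 is required for T lineage specification, and beta-catenin activity is known to affect the passage through the double-negative stages.

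The lists held 26029 and 29030 peaks in the EpCAM-positive fraction (replicates 1 and 2) and 24598 and 25924 in the EpCAM-negative fraction. Peak strength is given as summit fragments, the pileup at a peak's summit recovered from the deposited fold and p-value; a value exists only where a peak was called. The genome-wide background recovered in the same way came to 0.388 and 0.383 fragments per base for EpCAM-positive cells, against 0.29 and 0.286 for EpCAM-negative cells, a ratio of 1.34 between the means. The weakest peak had a −log10 q of 2.07 and 2.02 in EpCAM-positive and of 1.32 and 1.34 in EpCAM-negative cells. These are bulk libraries, in which a region open in fewer cells and one less open in each cell cannot be told apart. As a check of the labelled cell type, 8 of 12 DN3 marker genes had a region within 1000 bp of their start in 3 of the libraries and 10 of 12 in EpCAM-negative replicate 1. Such a region was called for 46.7% to 50% of all protein-coding genes, depending on the library, so this check is a weak one. Of the 12, Tcf7 and Rag1 had none in any library, and Dtx1 had one in EpCAM-negative replicate 1 alone. Epcam itself had one in every library except EpCAM-negative replicate 1. No library had such a region at Pax5, Csf1r, Foxn1, Krt5, Gata1 or Ncr1, which define B, myeloid, epithelial, erythroid and natural killer cells. By contrast, Ebf1, Cebpa, Tfrc and Prf1 had one in every library, and Spi1, a myeloid marker, had one in EpCAM-positive replicate 1 alone. For every gene, a region at a start that was not used here would not have been counted. A two-sided exact permutation test of 2 against 2 libraries cannot give a p below 0.33, so no region or gene could pass one and none was run.

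At these genes, as in the whole genome, the most frequent pattern was a region common to all libraries. Of the 48 regions, 25 (52.1%) were called in all 4 libraries, against 46.3% of all regions in the genome. EpCAM-positive-only regions, with a peak in each EpCAM-positive library but in no EpCAM-negative one, numbered 4 (8.33%), against 4.4% of all regions. They lay in the windows of Fzd5, Axin1, Btrc and Tle4. EpCAM-negative-only regions, the reverse, numbered 2 (4.17%), in the windows of Lrp5 and Btrc, against 1.72% of all regions. The pattern with exactly 1 library of each fraction, which carries the same number of calls and no difference between fractions, was also seen at 2 regions (4.17%), in the windows of Fzd5 and Axin1, and at 6.95% of all regions. This pattern sums 4 pairs of libraries, with 470 to 925 regions per pair in the genome. Each group-only pattern is 1 pair, with 1594 EpCAM-positive-only and 623 EpCAM-negative-only regions in the genome. The genes were listed with some of these group-only regions already known, so the counts describe the list and are no evidence about it. A further 5 regions (10.4%) were called in 3 libraries, against 10.8% of all regions, and 10 (20.8%) in a single library, against 29.8%. Of these 10, 3 were in EpCAM-positive replicate 1, 6 in EpCAM-positive replicate 2, 0 in EpCAM-negative replicate 1 and 1 in EpCAM-negative replicate 2. Over the genome, the same libraries in that order had 2577, 3777, 1877 and 2570 such regions. Counted by window, 4 of the 10 genes (40%) had an EpCAM-positive-only region, against 9.6% of all protein-coding genes and 14.8% of those with windows of at least 100 kb. An EpCAM-negative-only region lay in the windows of 2 genes (20%), against 2.86% of all protein-coding genes and 6.1% of those with the longer windows. The median window was 136 kb for the 10 genes, 57.2 kb for all genes and 153 kb for the longer class, so neither class matches the 10 genes, of which Fzd5, Tle3 and Ctnnb1 have windows under 100 kb. Without EpCAM-positive replicate 1 the EpCAM-positive-only count was 10, and without EpCAM-positive replicate 2 it was 7, since a single call then sufficed. Without EpCAM-positive replicate 2 the EpCAM-negative-only count was 4.

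**Figure D1:**
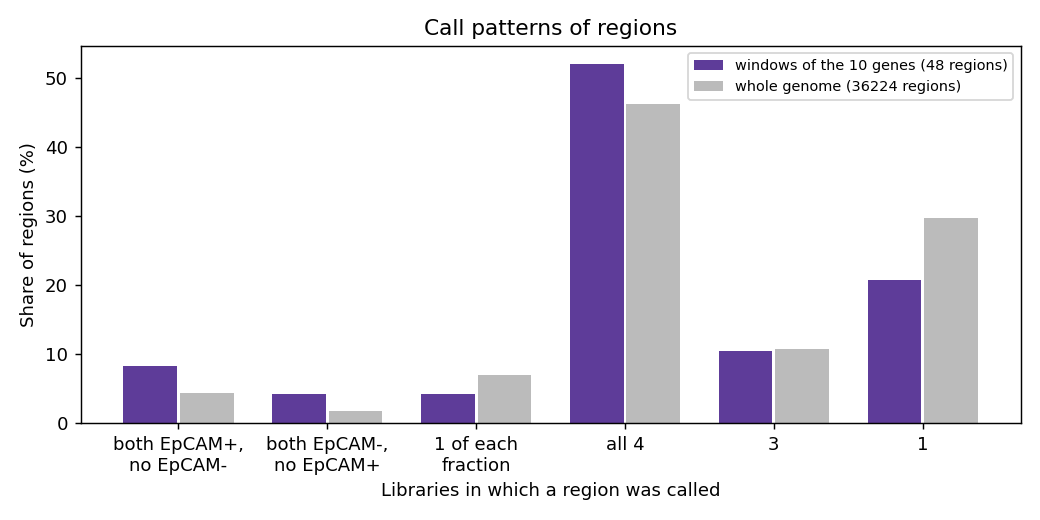
Share of regions (%, vertical axis) by the libraries in which they were called, for the 48 regions in the windows of the 10 genes (purple) and for all 36224 regions (grey). Regions of all 4 libraries make up 52.1% at the 10 genes and 46.3% in the genome, and EpCAM-positive-only regions 8.33% at the 10 genes and 4.4% in the genome.

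The group-only regions were weak and none lay at its own gene's start. The highest summit fragments of a region had a median of 12 (range 6 to 20) in the 4 EpCAM-positive-only regions, of 10 (8 to 12) in the 2 EpCAM-negative-only regions and of 40 (12 to 250) in the 25 shared ones. Over all regions these medians were 12, 10 and 36. None of the 6 group-only regions had its summit within 1000 bp of a start of its gene (of either end of the span for the 4 genes with no listed start), while 8 of the 10 genes had a region there that all 4 libraries shared, as did 43% of protein-coding genes. How often the group-only regions of the genome lie at a start is not given here, so this placement describes the 6 regions alone. In total, 5 of the 6 lay inside their gene and 1, in the Axin1 window, lay beyond it next to another gene. Their widths were also smaller, with a median of 386 bp for the EpCAM-positive-only kind, 246 bp for the EpCAM-negative-only kind and 632 bp for the shared kind, and over all regions these medians were 347.5, 320 and 681 bp. With a minimum −log10 q of 5 in every list, 5 of the 6 were no longer called group-only, and only that of the Axin1 window was. With lists of equal length, 3 of the 4 EpCAM-positive-only regions, those at Fzd5, Btrc and Tle4, were no longer called so.

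**Figure D2:**
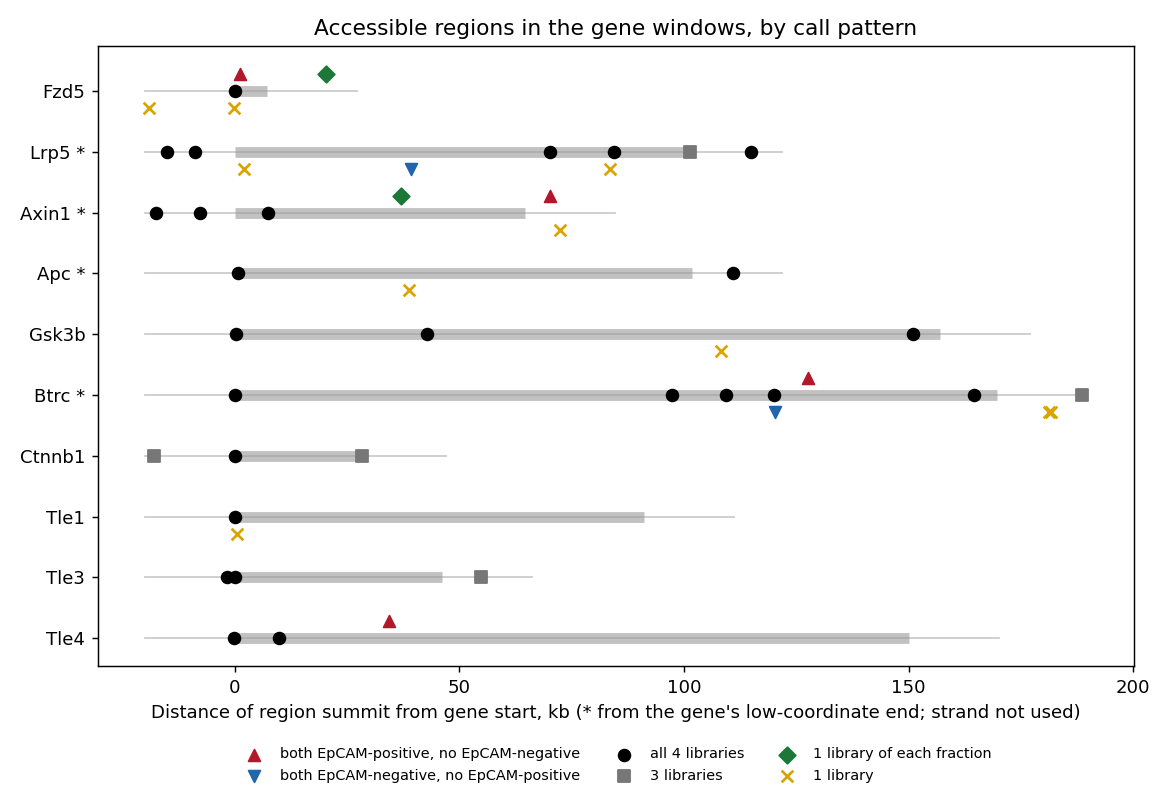
Position of each of the 48 regions as the distance of its summit from the gene start in kb (for genes marked with an asterisk, from the low-coordinate end), with gene spans in grey and windows as thin lines. Symbols give the call pattern, and symbols of the patterns with 1 or 2 calls are set above or below the line; 8 of the 25 shared regions sit at a gene start, and none of the 6 group-only regions (triangles) does.

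Promoter sequences at the gene starts were read from RefSeq (GRCm38.p6), which gave 8 promoters for 6 of the 10 genes: Ctnnb1, Tle1, Tle3, Tle4, Fzd5 and Gsk3b. Each covers 250 bases before to 50 after a transcription start. The TCF/LEF core was searched in 3 forms on both strands. These were CTTTGAA as the first form, CTTTGAT as the second form and CTTTGTT as the last form, and 0 of these 8 promoters held one, against 13.9% of 32851 promoters, so these letters are not in these windows. The letters CCAAT, on either strand, were found in the 250 bases before the start in 5 of the 8 promoters and 33.8% of all promoters, and the palindrome CACGTG in 2 of 8 and 6.02%. These 2 words were picked after the sequences had been seen, and a match is a description and not a bound site. GC content ran from 52.4% (Tle3) to 77.2% (Tle1).

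The 250 bases before the start are shown for 5 genes, 5′ to 3′ on the gene's strand, with CCAAT, its reverse complement and CACGTG in capitals, since they show what the strongest and the weaker start peaks cover. Those of Gsk3b (chr16:38088751-38089000, plus strand) and Tle4 (chr19:14598184-14598433, minus strand) lay wholly inside a peak in all 4 libraries. Those of Tle3 (chr9:61372116-61372365, plus strand), of the first start of Ctnnb1 (chr9:120933150-120933399, plus strand) and of Fzd5 (chr1:64737751-64738000, minus strand) were covered in part.
Gsk3b: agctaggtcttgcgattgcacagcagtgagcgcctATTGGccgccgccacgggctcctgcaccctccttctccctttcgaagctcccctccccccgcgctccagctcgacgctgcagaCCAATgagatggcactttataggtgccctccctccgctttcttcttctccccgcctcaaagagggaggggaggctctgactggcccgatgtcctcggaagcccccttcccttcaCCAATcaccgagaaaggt
Tle4: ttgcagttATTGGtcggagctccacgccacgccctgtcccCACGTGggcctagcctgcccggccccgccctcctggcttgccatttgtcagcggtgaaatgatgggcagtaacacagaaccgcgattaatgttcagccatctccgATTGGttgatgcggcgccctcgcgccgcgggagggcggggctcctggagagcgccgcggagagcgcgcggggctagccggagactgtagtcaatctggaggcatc
Tle3: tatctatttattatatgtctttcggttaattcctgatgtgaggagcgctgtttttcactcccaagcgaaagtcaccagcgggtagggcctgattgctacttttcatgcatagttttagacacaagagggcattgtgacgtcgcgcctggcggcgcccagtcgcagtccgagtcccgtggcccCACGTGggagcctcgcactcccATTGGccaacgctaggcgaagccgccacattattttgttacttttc
Ctnnb1: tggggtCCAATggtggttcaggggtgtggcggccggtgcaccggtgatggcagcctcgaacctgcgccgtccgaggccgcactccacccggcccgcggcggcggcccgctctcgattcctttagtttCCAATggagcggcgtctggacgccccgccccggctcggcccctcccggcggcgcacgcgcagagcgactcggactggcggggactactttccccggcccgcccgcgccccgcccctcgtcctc
Fzd5: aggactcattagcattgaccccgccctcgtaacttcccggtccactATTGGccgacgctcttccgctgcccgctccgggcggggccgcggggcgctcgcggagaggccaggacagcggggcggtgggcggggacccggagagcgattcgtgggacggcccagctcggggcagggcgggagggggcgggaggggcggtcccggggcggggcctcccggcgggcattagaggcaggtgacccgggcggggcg

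Gsk3b held 3 CCAAT words, the most of the 8 promoters, and Tle4 and Ctnnb1 held 2 each. CACGTG was present only in the Groucho genes Tle3 and Tle4 and not in Tle1. Of the 300 promoter bases at Fzd5, peaks covered 107 and 118 in EpCAM-positive cells and 109 and 268 in EpCAM-negative cells, the last through a separate upstream peak of replicate 2. At the first start of Ctnnb1 the covered bases were 218 and 201 in EpCAM-positive cells and 148 and 291 in EpCAM-negative cells, and at Tle3 they were 201 and 207 in EpCAM-positive cells against 225 and 197 in EpCAM-negative cells. In neither gene did the fractions separate. At the second listed start of Ctnnb1, 120933578, all 300 promoter bases lay inside a peak in every library.

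Among the receptors, Fzd5, a Frizzled gene on chromosome 1 (64730558 to 64737750, minus strand), had its strongest region at its start. The shared region there (64737202 to 64737818, summit 122 bp inside the gene) had 31 and 26 summit fragments in EpCAM-positive cells, against 15 and 20 in EpCAM-negative cells. The values of the fractions did not overlap, and the ratio of their means was 1.63. Divided by each library's background they did overlap, at 79.9 and 67.9 in EpCAM-positive cells against 51.7 and 69.9 in EpCAM-negative cells. EpCAM-negative replicate 2 had a further peak of 17 fragments just upstream (64737840 to 64738056), which did not touch the shared region and was called in that library alone.

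The EpCAM-positive-only region of Fzd5 (64736529 to 64736799) lay inside the gene, 1071 bp from its start and so just beyond the limit of 1000 bp. It had 17 and 16 summit fragments in EpCAM-positive cells and no peak in EpCAM-negative cells. These pileups stood on a high local background of 4.3 and 3.08 fragments, with folds of 3.4 and 4.17 and a −log10 q of 3.72 and 4.97. The nearest EpCAM-negative peak was 544 bp away and had 15 fragments. The remaining Fzd5 regions were a peak of EpCAM-positive replicate 2 upstream (7 fragments) and a region of 1 library of each fraction beyond the gene's end, within Ccnyl1 (6 fragments in EpCAM-positive replicate 2 and 5 in EpCAM-negative replicate 1).

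Lrp5, which encodes the coreceptor that binds Wnt together with Frizzled, spans chromosome 19 from 3584825 to 3686585 and had 9 regions in its window. The strongest of them, at 3575398 to 3576331, belongs by position to the neighbouring gene Ppp6r3, a regulatory subunit of protein phosphatase 6, 208 bp from its start. It had 179 and 219 summit fragments in EpCAM-positive cells and 151 and 187 in EpCAM-negative cells, and the fractions overlapped. At the high-coordinate end of Lrp5 itself the region was far weaker (3686005 to 3686526, 354 bp inside the gene). It had 13 and 10 fragments in EpCAM-positive cells and 10 in EpCAM-negative replicate 1, and no peak was called in EpCAM-negative replicate 2.

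Inside Lrp5, an EpCAM-negative-only region lay 39221 bp from the nearer end (3623868 to 3624119). No EpCAM-positive peak was called there, against 12 and 8 summit fragments in EpCAM-negative cells, with a −log10 q of 9.85 and 4.52. The nearest EpCAM-positive peak was 30680 bp away. Of the 6 group-only regions it thus had the most distant neighbour in the other fraction apart from that of the Axin1 window. A pair of shared regions lay further along the gene. One, at 3654800 to 3655328, had 26 and 16 fragments in EpCAM-positive cells and the same 26 and 16 in EpCAM-negative cells. The other, at 3668845 to 3669442, had 11 and 13 in EpCAM-positive cells against 14 in each EpCAM-negative library, the only shared region of the 25 in which both EpCAM-positive pileups were the lower ones.

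In the destruction complex, Gsk3b, the kinase that phosphorylates beta-catenin, had the highest pileup of all 48 regions at its start (chromosome 16, gene 38089001 to 38246084, plus strand). Its region at 38088469 to 38089866 was also the widest of the 48, at 1398 bp, with a summit that also fell within the annotated gene BC031361. It had 250 and 249 summit fragments in EpCAM-positive cells and 206 and 202 in EpCAM-negative cells. The fractions did not overlap and the replicates of each agreed closely, with a ratio of means of 1.22, below the 1.34 between the backgrounds. Relative to background the order was the reverse, at 644 and 650 in EpCAM-positive cells against 710 and 706 in EpCAM-negative cells. In every list fewer than 1% of peaks were stronger, between 0.377% and 0.708%.

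A second shared region of Gsk3b lay 42806 bp into the gene (38131337 to 38132124), with 53 and 61 summit fragments in EpCAM-positive cells and 56 and 57 in EpCAM-negative cells. The weakest shared one, near the far end (38239591 to 38240131), was weak in all libraries, with 7 and 12 fragments in EpCAM-positive cells against 9 and 5 in EpCAM-negative cells. Both sets of values overlapped between the fractions. The fourth region was a peak of 8 fragments in EpCAM-positive replicate 1 alone, so Gsk3b had no group-only region.

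Apc, the scaffold and tumour suppressor that holds beta-catenin in the complex, spans chromosome 18 from 34220297 to 34322190. Its region at the low-coordinate end (34220634 to 34221646, 757 bp inside) had 58 and 48 summit fragments in EpCAM-positive cells and 49 and 33 in EpCAM-negative cells. The fractions overlapped here, and the summit also fell within the annotated gene Gm10548. The other shared region of the window (34330737 to 34331497) covered an end of Srp19, a subunit of the signal recognition particle, and had 36 and 40 fragments in EpCAM-positive cells against 39 and 36 in EpCAM-negative cells. Between them the gene body held a single peak, of 8 fragments in EpCAM-positive replicate 2.

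Axin1, the limiting scaffold of the complex, was the one gene without a region within 1000 bp of either end of its span (chromosome 17, 26131217 to 26195811). This span includes predicted transcripts, and single transcript starts of Axin1 were not used here. A region at an Axin1 start that lies inside the span would thus not have been counted. The strongest region of the window lay 7360 bp inside the low-coordinate end of Axin1 (26138264 to 26139152). It had 66 and 69 summit fragments in EpCAM-positive cells and 55 and 66 in EpCAM-negative cells. The summit also fell within the annotated gene Gm46600, and whether it marks a start of Axin1 was not tested. The gene-dense flank held shared regions at the starts of Pgap6 (26113225 to 26113856) and of the mitochondrial ribosomal protein gene Mrpl28 (26123310 to 26123789).

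The Pgap6 region had the highest ratio of the 25 shared regions. It had 18 and 12 fragments in EpCAM-positive cells against 8 and 7 in EpCAM-negative cells, a ratio of 2. It was also the only one in which both EpCAM-positive values stayed above both EpCAM-negative values relative to background, at 46.4 and 31.3 in EpCAM-positive cells against 27.6 and 24.5 in EpCAM-negative cells. In the genome, 13.3% of shared regions had that order. At the Mrpl28 start the values were 22 and 19 in EpCAM-positive cells against 17 and 11 in EpCAM-negative cells. The EpCAM-positive-only region of the window (26201231 to 26201605) had 14 and 20 fragments in EpCAM-positive cells and a −log10 q of 7.96 and 11.7, the highest of the 4 such regions. It lay 5670 bp outside Axin1 and 131 bp from an end of Arhgdig, and the nearest EpCAM-negative peak was 32838 bp away. Which gene these flanking regions act on was not tested.

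Btrc, which encodes the substrate-recognition subunit beta-TrCP, spans chromosome 19 from 45363688 to 45533343 and had the most regions of the 10 genes. Of its 10 regions, 5 were called in all 4 libraries. The region at the low-coordinate end (45363396 to 45364167) was the strongest, with 61 and 87 summit fragments in EpCAM-positive cells and 61 and 79 in EpCAM-negative cells. The replicates of each fraction differed by more than the fractions did. Within the gene, the shared region at 45460540 to 45461359 had 40 and 25 fragments in EpCAM-positive cells against 20 and 15 in EpCAM-negative cells, a ratio of 1.86 and the second highest of the 25. Relative to background these values overlapped, at 103 and 65.3 in EpCAM-positive cells against 69 and 52.4 in EpCAM-negative cells.

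The distal part of Btrc held both kinds of group-only regions, 6646 bp apart. The EpCAM-positive-only region (45490868 to 45491297) had 6 summit fragments in each EpCAM-positive library, on a local background of 0.388 and 0.471 fragments. The EpCAM-negative-only region (45483982 to 45484221) had 6 and 8 fragments in EpCAM-negative cells. It lay 1 bp beyond the edge of a region called in all 4 libraries (45483633 to 45483980), which had 12 and 14 fragments in EpCAM-positive cells against 7 and 15 in EpCAM-negative cells. Each EpCAM-negative library thus had a separate peak directly beside the region that all libraries shared. Beyond the gene, a region at an end of Poll, the DNA polymerase lambda gene, was called in 3 libraries, with 9 fragments in EpCAM-positive replicate 2 against 12 and 18 in EpCAM-negative cells.

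Ctnnb1 itself, on chromosome 9 (120933400 to 120960507, plus strand), had 3 regions, of which that at the start was the strongest. At its start (120933159 to 120933741) the values were 22 and 40 summit fragments in EpCAM-positive cells and 35 and 20 in EpCAM-negative cells. Each fraction had a high and a low replicate, and the spread within fractions was larger than the difference between their means of 31 and 27.5. By −log10 q, 47.7% and 22.5% of peaks were stronger than it in the EpCAM-positive lists, against 21.5% and 40.6% in the EpCAM-negative lists. The window held no other region of all 4 libraries. An upstream region, 18074 bp from the start (120914948 to 120915484), had 14 fragments in EpCAM-positive replicate 2 and 7 in each EpCAM-negative library. A region 1178 bp beyond the end (120961553 to 120962016) had 8 fragments in EpCAM-positive replicate 1 against 12 and 9 in EpCAM-negative cells. In both, the EpCAM-positive replicates disagreed on the call.

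**Figure D3:**
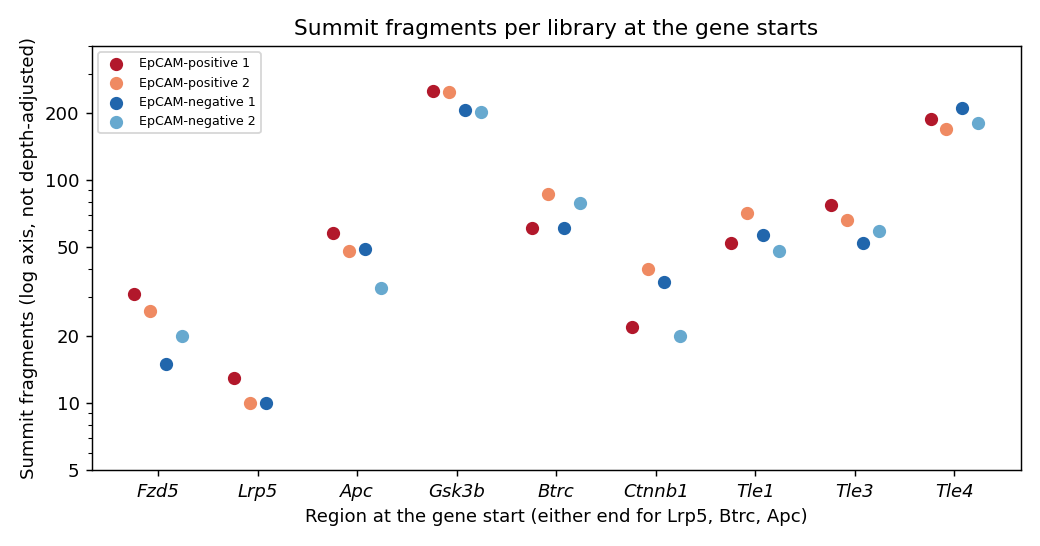
Summit fragments (log axis, not adjusted for depth) of the region at the gene start for 9 genes, with EpCAM-positive libraries in red and EpCAM-negative ones in blue. Gsk3b and Tle4 have 169 fragments or more in every library, Lrp5 reaches at most 13, and the fractions separate only at Fzd5, Gsk3b and Tle3.

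Of the Groucho genes, which encode corepressors recruited by TCF1, RUNX and HES factors, Tle4 had by far the strongest start (chromosome 19, gene 14448072 to 14598183, minus strand). Its region at 14597756 to 14598848 had 188 and 169 summit fragments in EpCAM-positive cells and 210 and 181 in EpCAM-negative cells. The raw values overlapped, but relative to background both EpCAM-positive values, 485 and 441, were below the EpCAM-negative values of 724 and 633. This was the lowest of the scaled ratios among the 8 shared start regions, at −0.55 on the log2 scale, where the median was −0.11 over all shared regions of the genome. A second listed start of Tle4, at 14597213, had no base of its promoter inside a peak in any library.

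Further into Tle4, a shared region 8753 bp from the nearest start (14588246 to 14588698) had 14 and 8 fragments in EpCAM-positive cells against 13 and 10 in EpCAM-negative cells. The EpCAM-positive-only region lay deeper in the gene, 33448 bp from the nearest start (14563537 to 14563933). It had 7 and 6 fragments in EpCAM-positive cells, a −log10 q of 4.53 and 4.28, and no EpCAM-negative peak within 24330 bp. It was the weakest of the 3 regions of the window, while the start carried 169 fragments or more in all 4 libraries.

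Tle3 (chromosome 9, 61372326 to 61418497, plus strand) had a region at its start and another upstream. At the start (61372191 to 61372770) there were 77 and 66 summit fragments in EpCAM-positive cells and 52 and 59 in EpCAM-negative cells. A second shared region lay 1721 bp upstream (61370463 to 61371031), with 68 and 67 in EpCAM-positive cells against 51 and 40 in EpCAM-negative cells. In both, the EpCAM-positive values were the higher, with ratios of 1.29 and 1.48, and in both the fractions overlapped once divided by the background. No group-only region lay within 20 kb of Tle3. The third region, 8638 bp beyond the gene, had 9 and 10 fragments in EpCAM-positive cells and 9 in EpCAM-negative replicate 1.

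Tle1 (chromosome 4, 72109945 to 72200989, minus strand) was accessible at its start alone. The shared region (72200665 to 72201627) had 52 and 71 summit fragments in EpCAM-positive cells and 57 and 48 in EpCAM-negative cells, and the fractions overlapped. A peak of EpCAM-positive replicate 1 just inside the gene (72200343 to 72200585) had 21 fragments on a local background of 5.45. The rest of the 131 kb window held no peak in any list.

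Across the 25 shared regions, the pileups of both EpCAM-positive libraries exceeded those of both EpCAM-negative libraries in 9, and were below them in 1. In the genome 49.4% of 16758 shared regions were of the first kind and 5.2% of the second. The median ratio of EpCAM-positive to EpCAM-negative means was 1.18 at these genes and 1.24 in the genome. Division by the background of each library left 1 region, at Pgap6, with both EpCAM-positive values above, where the genome had 13.3%, and 8 with both below, where the genome had 32.1%. The 8 were the starts of Gsk3b and Tle4 and regions in the windows of Gsk3b, Btrc, Lrp5, Axin1 and Apc. A difference in the share of fragments outside peaks would move these scaled values too, and its part was not tested. Summit positions of a shared region had a median range of 80 bp over the 4 libraries (9 to 264 bp). In 14 of the 25 the range was within 100 bp. The merging of overlapping peaks limits this range in advance.

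**Figure D4:**
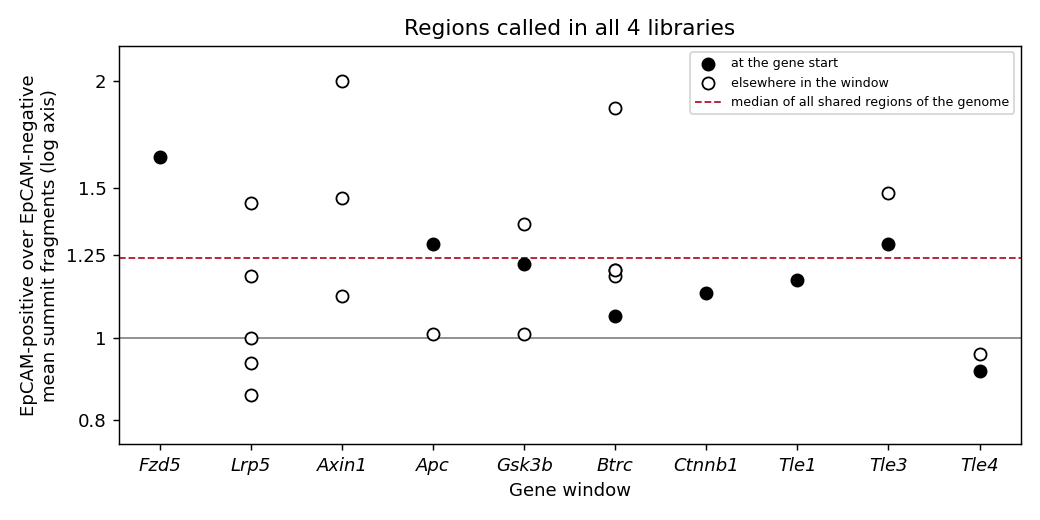
Ratio of the mean summit fragments, EpCAM-positive over EpCAM-negative (log axis), for the 25 regions called in all 4 libraries, by gene window, with regions at the gene start filled. The dashed line is the median of all shared regions of the genome, 1.24; the points run from 0.857 in the Lrp5 window to 2 in the Axin1 window, and both Tle4 regions are below 1.

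Another 101 genes of the pathway, from ligands to targets, had 315 regions within the same 20 kb flanks, and 13 of the genes had none. Of these regions, 160 (50.8%) were called in all 4 libraries, 10 (3.17%) were EpCAM-positive-only and 5 (1.59%) were EpCAM-negative-only, shares near or below the genome's 4.4% and 1.72% for the group-only patterns. Gene starts were called for 58 and 56 genes in EpCAM-positive cells and for 51 and 54 in EpCAM-negative cells. As shares of the 101 genes these were 57.4% and 55.4% in EpCAM-positive cells and 50.5% and 53.5% in EpCAM-negative cells, and over all protein-coding genes they were 49.4% and 50% in EpCAM-positive cells and 47% and 46.7% in EpCAM-negative cells. Over all regions in the genome, 46.3% were called in all 4 libraries. By role, this share was highest at the destruction complex and signal relay genes, with 37 of 62 regions (59.7%). The SCF ligase genes and the targets were close to it, at 57.1% each. It was lowest at the 19 Wnt ligand genes, with 13 of 41 (31.7%).

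The EpCAM-positive-only regions of this list were spread over its roles. Fzd6, a Frizzled receptor gene, had one 9 bp from an end of its span (11 and 7 summit fragments in EpCAM-positive cells), and Nkd2, which encodes an inhibitor of Dishevelled, had one 81 bp from a start (7 and 10). Ctnnbip1, whose product blocks the binding of beta-catenin to TCF, had one 1930 bp from a start (11 and 11), and Tcf7l2, a TCF factor gene, had one deep inside (12 and 12). The partners of Groucho had 3, at Hes1 (33 and 27, the strongest of the 10), Runx1 (13 and 14) and Runx3 (15 and 11), with an EpCAM-negative peak 1091, 889 and 3467 bp away. The others were in the windows of Jup, the plakoglobin gene, and of the ligand genes Wnt6 and Wnt8b.

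The 5 EpCAM-negative-only regions lay in the windows of Gsk3a, the paralogue of Gsk3b (15 and 17 summit fragments in EpCAM-negative cells, 476 bp from an EpCAM-positive peak), Bcl9, a coactivator of beta-catenin (8 and 8), Rnf43, a ligase that removes Frizzled from the surface (5 and 5), Kremen2, a Dickkopf receptor gene (14 and 10), and Wnt5b (10 and 15). No gene of this list had both kinds, as Btrc did. Among other relatives of the 10 genes, Lrp6, Axin2, Fbxw11, Tle2, Tle5 and Tle6 had no group-only region. The nuclear partners Tcf7 and Lef1 had 3 of 6 and 2 of 6 regions in all 4 libraries, against 46.3% of all regions, and none restricted to a fraction. No library had a region within 1000 bp of a start used here for Tcf7, while every library had one for Lef1. A region at a start that was not used would not have been counted, so the Tcf7 promoter is not shown to be closed.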

How the data were processed

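The 4 samples were grouped by their titles into EpCAM-positive and EpCAM-negative DN3 cells, with 2 libraries each. Per the submitters' processing notes, the build was mm10 (GRCm38) and the tools, with no role stated, were MACS3, Bowtie2, Trimmomatic, Trim Galore, FastQC, Picard, SAMtools, deepTools and bedtools. Their versions and settings, duplicate handling and any shift for the transposase were not given in the sources used here. With 1 list per library, the deposited lists give each peak's interval, summit offset, display score, enrichment ratio (fold), −log10 p-value and −log10 q-value, all the authors' own. Read totals are not known, nor whether the caller counted fragments or reads.

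Summit fragments were solved from fold and −log10 p as the whole-number pileup whose fold (1 added above and below) and Poisson tail match both, within 0.01 on −log10 p. This succeeded for 99.9885% to 99.9959% of peaks, and the solver was tested on simulated data. The lowest background shared by at least 100 peaks was taken as a library's background. The 4 lists were merged at 1 bp of overlap, on chromosomes 1 to 19 and both sex chromosomes. The summit of the strongest peak by −log10 q stands for the region. Gene spans and starts came from RefSeq GRCm38.p6; where no start was listed, either end of the span served. Counts were set beside those of all regions genome-wide. The members and lists were chosen with earlier results of these data known. For every member the text names the region at the start, the strongest region and each group-only region. Python 3.11.15, NumPy 2.4.6, SciPy 1.17.1 and Matplotlib 3.10.9 were used.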

Additional observations from a re-analysis of the deposited data

How the results depend on the processing

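The count of regions shared by all 4 libraries (25) and of genes with a shared region at the start (8) stayed within 1.5 times under every alternative run. The counts of group-only regions are small and moved more. With a minimum −log10 q of 5 in every list there were 2 EpCAM-positive-only regions, both in the Axin1 window, and 1 EpCAM-negative-only region, in the Btrc window. Of the 6 group-only regions reported, that setting kept only the one in the Axin1 window, so the others counted under it are different regions. With lists of equal length (the 24585 strongest peaks of each) there were 1 EpCAM-positive-only and 4 EpCAM-negative-only regions, and those reported as EpCAM-positive-only at Fzd5, Btrc and Tle4 were lost. With no peak of the other fraction allowed within 500 bp, 1 EpCAM-negative-only region was left, that at Lrp5. When 1 library was left out, the EpCAM-positive-only count ran from 4 to 10 and the EpCAM-negative-only count from 2 to 4. The counts stayed within 1.5 times with no flank, a 50 kb flank, an overlap of at least 50% of the shorter peak, a common minimum −log10 q of 2.07, and EpCAM-positive lists thinned to the EpCAM-negative background. The Axin1 region was lost with no flank, the EpCAM-positive-only one at Btrc also with the 50% overlap, and the EpCAM-negative-only one at Btrc also with the 500 bp rule. Of 350 counts for single genes under an alternative, 39 moved by over 1.5 times or changed from or to 0. Many of the others were 0 both as reported and under the alternative. No paired analysis was possible because the results are counts that come from no test, and nothing ties equal library numbers to an animal or a day. Depth as a count of reads is not known, and regions of 5 to 8 summit fragments lie at the limit of detection.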
